A study of Mus musculus with 3 samples.

Results

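Naive or central memory-like CD8 T cells were studied in subcutaneous tumors of MC38-Ova, a mouse colon carcinoma line that expresses ovalbumin. In the 3 single-cell libraries, 31943 cells had 1000 to 6000 detected genes and under 7.5% mitochondrial UMIs (unique molecular identifiers, each standing for 1 captured RNA molecule). Of these cells, 7727 met a CD8 T cell gate of at least 2 Cd3e UMIs, at least 1 UMI each of Cd8a and Cd8b1, no Cd4 or Ncr1 UMI, and at most 3 UMIs of Mki67 and Top2a together. The naive or central memory-like cells were 1017 of the 7727 and were chosen by their RNA: at least 2 of the 4 markers Lef1, Dapl1, Igfbp4 and S1pr1 detected, no Havcr2 UMI, and at most 1 Gzmk UMI. All values of those 13 genes are therefore a description of the choice, and they were left out of every test. The other 6710 cells of the gate served as the comparison within each library.

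All 3 libraries came from WT C57BL/6 Kaede mice, which carry a transgenic photoconvertible fluorescent protein and were injected with 250000 tumor cells. The labels describe every tumor as isotype control treated. Tumors were photoconverted from green to red on day 13 and taken on day 15, so Kaede-green (KG+) cells had entered the tumor within the last 2 days and Kaede-red (KR+) cells had been there for at least 2 days. Live CD45+ TER119- Kaede+ cells were sorted after removal of CD11b+ NK1.1- myeloid cells, and gave 2 KG+ libraries (KG+ 1 and KG+ 2) and 1 KR+ library. The libraries held 87193225 UMIs (KG+ 1), 129438292 UMIs (KG+ 2) and 175848894 UMIs (KR+). No test between the colors was made, since there was a single KR+ library. The labels do not say how many mice stand behind a library, so p-values below measure only the spread between these 3 libraries. The sort split cells by color, so the KR+ library may share tumors with a KG+ library. Whether it does is not stated in the labels. Between libraries, 20, 28 and 36 cell barcodes were shared by pairs, none of them (0) among the naive or central memory-like cells.

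Naive CD8 T cells circulate between blood and lymphoid organs and have not yet met their antigen, whereas central memory cells have met it and kept the ability to home to lymph nodes. Both use Ccr7 to enter lymph nodes and S1pr1, under control of Klf2, to leave them, and both depend on the transcription factors Tcf7 and Lef1. Effector and exhausted CD8 T cells in tumors lose much of this program and gain granzymes, chemokines and inhibitory receptors such as Pdcd1 and Havcr2.

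The cells differed in how well they met the rule. Exactly 2 markers were detected in 674 cells, 3 in 277 and all 4 in 66. S1pr1 was detected in 914 of the 1017 cells, Lef1 in 889, Dapl1 in 432 and Igfbp4 in 208, and the most frequent pair was Lef1 with S1pr1 and no other marker (482 cells). The KR+ cells held more cells with Lef1 and Dapl1 only (17.3%, against 5.42% in KG+ 1 and 3.47% in KG+ 2) and fewer with S1pr1 (79.0%, against 89.8% and 94.7%). The median cell had 10231 UMIs in KG+ 1, 10523 in KG+ 2 and 11969 in KR+, while the other CD8 T cells had 7800.5, 9156 and 11973.5. At an equal 3000 UMIs a cell, the naive or central memory-like cells had fewer detected genes, with medians of 1087, 1149 and 1116 against 1210, 1221 and 1205. Their median share of mitochondrial UMIs was higher in each library, at 4.16%, 3.59% and 3.25% against 3.13%, 2.86% and 2.34%.

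The label was checked with 6 markers that the rule did not use: Ccr7, Tcf7, Il7r, Klf2, Satb1 and Bach2. Each cell was reduced to 2000 UMIs, so that depth was equal. Tcf7 was then detected in 25.4% of the naive or central memory-like cells and 5.87% of the other CD8 T cells, Klf2 in 52.9% against 17.3% and Satb1, a chromatin organizer of T cells, in 52.9% against 23.5%. Ccr7 was detected in 45.2% against 17.5%, and Bach2, a repressor that restrains effector differentiation, in 9.14% against 4.04%. Il7r, the receptor for the survival cytokine IL-7, did not separate the classes, at 35.0% against 34.0%. As a measure of free RNA, Tcf7 was detected in 2.08% of 96 macrophage-like cells and 0.658% of 304 B-like cells, types that should lack it, and Il7r in 5.21% and 2.96%. Median depths before the reduction were 10565 UMIs (naive or central memory-like), 9898.5 (other CD8 T), 14960 (macrophage-like) and 4264 (B-like). Of the 6 markers, 5 were thus detected more often than in the other CD8 T cells as a whole, and Il7r was not. Among cells with no Havcr2 and at most 1 Gzmk UMI, however, Ccr7 did not rise with the number of rule markers, as given below. Genes of effector and memory cells were detected too. Gzmb, the gene of granzyme B, was found in 42.2% of the naive or central memory-like cells against 73.5% of the other CD8 T cells, 22.7% of B-like and 13.5% of macrophage-like cells. Ccl5 was found in 69.2%, 75.5% and 51.2% in KG+ 1, KG+ 2 and KR+, against 82.1%, 83.1% and 53.9% of the other CD8 T cells, and over all libraries it was found in 32.6% of B-like and 25% of macrophage-like cells.

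Among CD8 T cells with no Havcr2 and at most 1 Gzmk UMI, levels changed in steps with the number of rule markers rather than at the threshold. Values are CPM, a gene's UMIs in the summed cells scaled to the same total in every sum. In KG+ 1, Tcf7 was at 101 CPM in cells with 1 marker, just outside the rule, at 162 CPM in cells with 2 markers, just inside it, and at 230.2 CPM in cells with 4. In KG+ 2 the same steps were 81.8, 144 and 209 CPM, and in KR+ 60.1, 116 and 224 CPM. Klf2 was at 308, 473 and 824 CPM in KG+ 1, at 291, 547 and 873 CPM in KG+ 2, and at 115, 274 and 1071 CPM in KR+. Pdcd1, the gene of PD-1, ran the other way, from 276 CPM (1 marker) to 99.2 CPM (2 markers) in KG+ 1 and from 462 to 197 CPM in KR+. Ccr7 showed no such order: in KR+ it was highest with 1 marker (768 CPM), and in KG+ 1 it was at 504 CPM with 1 marker and 415 CPM with 2. Bach2 differed little between 1 and 2 markers, at 41.4 and 44.4 CPM in KG+ 1, 32.6 and 38.6 CPM in KG+ 2, and 33.7 and 30.3 CPM in KR+. These are descriptions of the choice of cells, and no test was made on them.

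**Figure D1:**
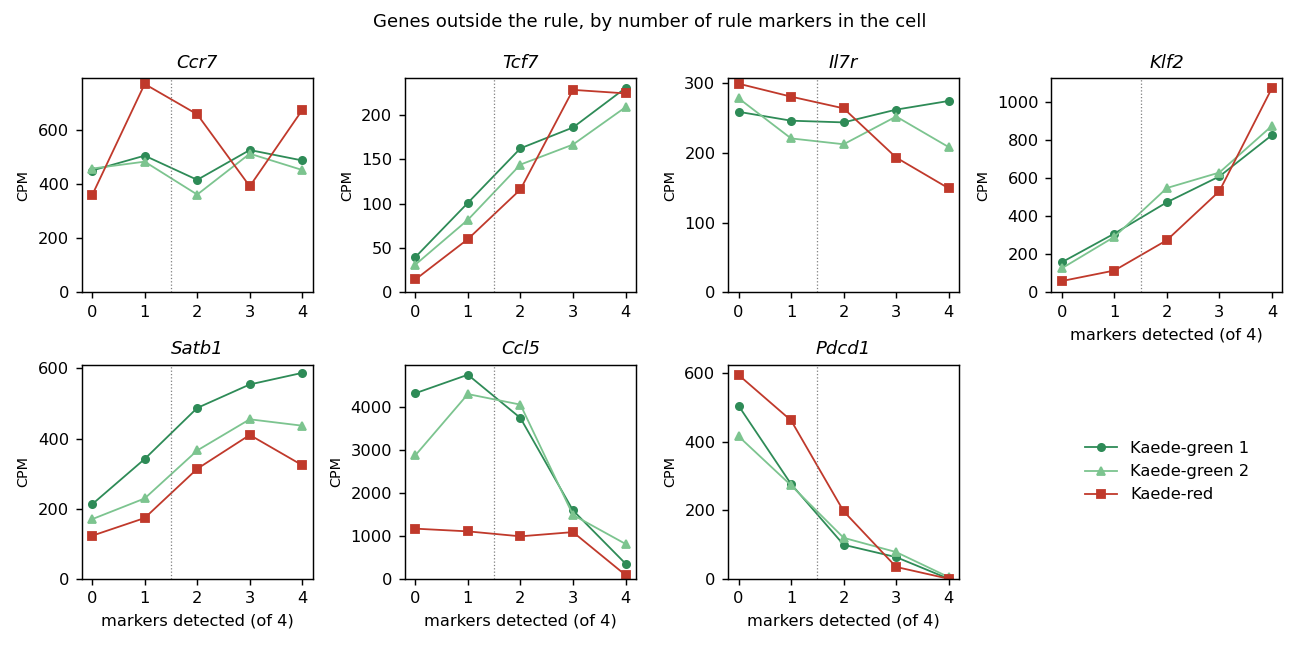
CPM (vertical axes) of 7 genes outside the rule in CD8 T cells with no Havcr2 and at most 1 Gzmk UMI, summed by the number of rule markers detected (horizontal axes), with 1 line per library and a dotted line at the rule's threshold. Tcf7, Klf2 and Satb1 climb from 0 to 3 markers in each library and Pdcd1 falls, while Ccr7 and Il7r show no common order.

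Naive or central memory-like cells made up 23.3% of the gated CD8 T cells in KG+ 1 (480 of 2064, exact Clopper-Pearson 95% interval 21.4 to 25.1%), 14.3% in KG+ 2 (375 of 2629, 12.9 to 15.7%) and 5.34% in KR+ (162 of 3034, 4.57 to 6.20%). The KR+ share was the lowest of the 3, and the KG+ libraries also differed from each other beyond counting error, which is all these intervals cover. After each cell was thinned to 3000 UMIs the order stayed, at 10.1%, 5.91% and 1.79%. With at least 3 of the 4 markers the shares were 8.91%, 4.18% and 1.62%. Of all cells within the limits, the naive or central memory-like cells were 4.80%, 3.39% and 1.49%, while the whole CD8 gate was 20.6%, 23.7% and 27.9%. The order was reversed for Havcr2-positive cells, which took 18.4%, 32.5% and 44.4% of the gate. Gzmk-positive Havcr2-negative cells took 18.9%, 16.3% and 10.5%, and the remaining cells 39.4%, 37.0% and 39.7%. Because the sort fixed the cells that entered each library, these are shares of sorted cells, and cell numbers per tumor were not measured.

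**Figure D2:**
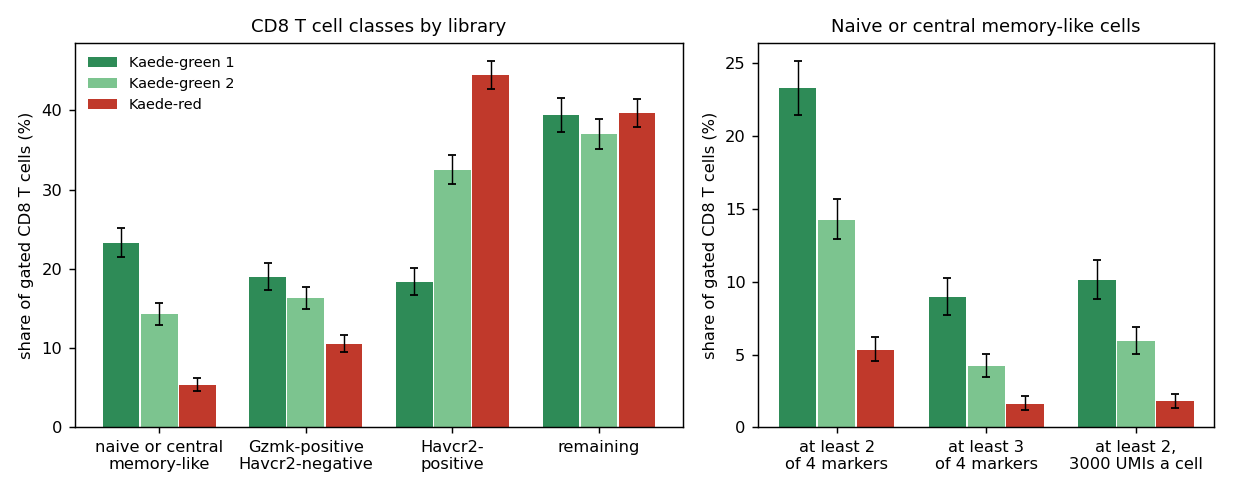
Share of gated CD8 T cells (percent) in 4 classes by library on the left, with exact 95% intervals for counting error, and the share of naive or central memory-like cells under other settings on the right. The share is 23.3% in KG+ 1, 14.3% in KG+ 2 and 5.34% in KR+, and that order holds under each setting drawn.

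To ask what set these cells apart from the other CD8 T cells of the same library, UMIs were summed per library and class. The sums were compared in edgeR's quasi-likelihood test with the library as a block and Benjamini-Hochberg adjustment. Most genes on the naive and central memory list were higher, and most on the cytotoxic, exhaustion and glycolysis lists were lower, with counts given below. The cells had been divided by their RNA, so genes that covary with the rule had to differ to some degree, and the p-values describe how evenly the difference recurred in the 3 libraries. Of 10974 genes tested, 1636 were higher (14.9%) and 1789 lower (16.3%) at an adjusted p under 0.05. Without scaling factors, on plain total UMIs, 1092 were higher and 2498 lower, since the median gene was then lower by 0.11 on the log2 scale (median -0.11).

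Tcf7 (chromosome 11, 52252371 to 52283014, minus strand, mm10), the gene of the transcription factor TCF-1, was at 175 CPM in KG+ 1, 153 CPM in KG+ 2 and 148 CPM in KR+, against 48.5, 36.8 and 14.0 CPM in the other CD8 T cells. The classes did not overlap, and the fitted difference was 5.56-fold (log2 2.48, SE 0.22, adjusted p = 4.69e-05). Klf2 (chromosome 8, 72319033 to 72321656, plus strand), which drives S1pr1, was at 544, 583 and 367 CPM against 185, 163 and 57.5 CPM, and was 4.32-fold higher (log2 2.11, SE 0.16, adjusted p = 1.70e-05). For both of these genes the other cells of KR+ were lower than those of either KG+ library, and the ratio was accordingly largest in KR+. Klf3, a relative of Klf2, was 4.07-fold higher, with 118, 109 and 84.0 CPM against 47.3, 34.0 and 9.5 CPM. Satb1 showed the smallest error of the named genes that were higher, at 2.73-fold (log2 1.45, SE 0.07, adjusted p = 2.60e-06). Other genes named by size were Fam241a (5.20-fold higher), the surface glycoprotein gene Cd7 (2.89-fold), the transmembrane RNA transporter gene Sidt1 (2.80-fold), the cytokine signaling inhibitor Socs3 (2.75-fold) and the actin regulator Ssh2 (2.62-fold).

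**Figure D3:**
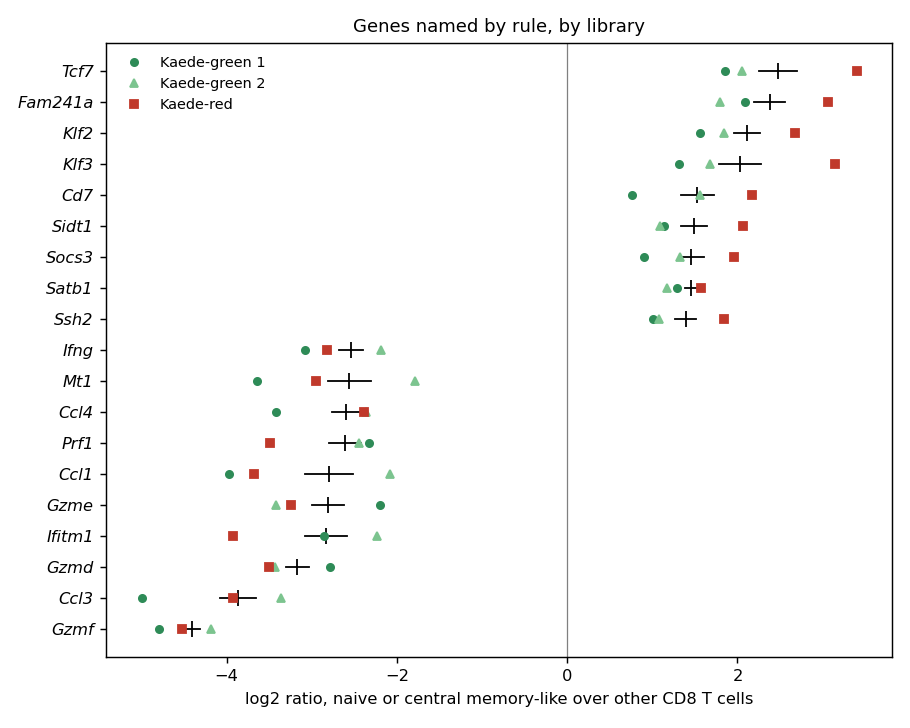
Log2 ratio of CPM (horizontal axis), naive or central memory-like cells over the other CD8 T cells of the same library, for 19 genes named by size in the test across all genes, with 1 point per library and a black cross for the fitted value, its horizontal bar spanning 1 SE each way. All 3 points of each gene lie on the same side of 0, and the KR+ point of Tcf7, Klf2 and Klf3 lies farthest from 0.

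On the list of naive and central memory genes, 18 of 23 were higher and 1 lower, with a median log2 difference of 1.43 against 0.01 over all genes tested. Besides those above, Il6ra, the IL-6 receptor, was higher by 2.93 on the log2 scale, Rflnb by 3.70, Id3, an inhibitor of E proteins, by 2.29 and Foxp1, a quiescence factor, by 1.15. Ccr7 was higher by only 0.86. Tspan32 was lower (log2 -0.94). Il7r (log2 -0.01), Foxo1, Cd27 and Sorl1 did not pass the test. Of the homing and egress genes, 6 of 10 were higher and 1, the integrin gene Itgal, was lower. Among 16 quiescence genes 8 were higher, with Pik3ip1, an inhibitor of PI3 kinase, at log2 2.12, and 2 were lower (Klf6 and Arrdc3). The Gimap genes, GTPases that keep resting T cells alive, were higher in 6 of 8, none (0) lower, and Gimap6 had the largest difference of them (log2 1.05).

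Cytotoxic and effector genes showed the opposite pattern, with 29 of 32 lower and a median log2 difference of -1.56. Gzmf (chromosome 14, 56205263 to 56211417, minus strand), a granzyme of activated T cells, was at 25.5, 32.4 and 188 CPM against 711, 589 and 4339 CPM, and was 21.2-fold lower (log2 -4.41, SE 0.10, adjusted p = 3.21e-08). Gzmd and Gzme were 8.99-fold and 7.01-fold lower. Granzyme sequences of this cluster are similar, so UMIs could be split between its genes by the counting. Prf1 (chromosome 10, 61297833 to 61304680, plus strand), the gene of the pore-forming protein perforin, was at 55.6, 64.4 and 71.7 CPM against 279.9, 351 and 808 CPM and was 6.11-fold lower (log2 -2.61, SE 0.19, adjusted p = 1.45e-05). Ifng, the gene of interferon gamma, was 5.81-fold lower, with 33.2, 67.1 and 32.5 CPM against 282, 305 and 231 CPM. The chemokine genes Ccl3, Ccl4 and Ccl1 were 14.5-fold, 6.05-fold and 6.95-fold lower, respectively. Gzmm was the exception, higher by 1.11 on the log2 scale (19.95, 26.2 and 8.49 CPM against 14.8, 10.96 and 2.34 CPM). Ifitm1, an interferon-induced membrane protein gene, was 7.12-fold lower, and Mt1, a metal-binding protein gene, 5.89-fold lower.

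Exhaustion and checkpoint genes were lower in 18 of 22 and higher in none (0). Pdcd1 was at 79.8, 103 and 149.5 CPM against 473, 398 and 615 CPM, a log2 difference of -2.08 (SE 0.10). Lag3, an inhibitory receptor, fell by 2.42, Tnfrsf9, the costimulatory receptor 4-1BB, by 1.82, Ctla4 by 1.59 and Tox, a transcription factor of exhausted cells, by 0.76 on the log2 scale. On the glycolysis and hypoxia list, 21 of 23 were lower (median log2 -0.84), among them Gapdh (1108, 1144 and 1866 CPM against 2556, 2237 and 3759 CPM), Aldoa (log2 -1.02) and Slc2a3, a glucose transporter gene (log2 -1.78). The residency list was lower in 7 of 11, with Cxcr6, a receptor of tissue-homing T cells, at log2 -2.26, and higher in 2 (Cd69 and Ahr).

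Cytosolic ribosomal protein genes were higher in 75 of 80 (median log2 0.46), and 1 gene, Rps27l, was lower. These genes are abundant, so the list held a large part of all UMIs. It came to 366390, 344340 and 369840 CPM in the naive or central memory-like cells against 277720, 271570 and 278700 CPM in the others. The mitochondrial share of UMIs given above was higher in the same cells, and whether cell quality had a part in either difference was not tested. Memory genes were divided: 7 of 14 were higher, such as Ly6c1 (log2 2.14) and the survival gene Bcl2 (log2 1.07), and 6 lower, such as Cd44 (log2 -0.94) and Klrk1 (log2 -1.37). Cytokine receptor genes were divided likewise, with 8 of 19 higher, including Il6st, Il4ra and Ifngr2, and 6 lower, including Il2ra (log2 -1.68) and Il12rb2 (log2 -0.98). Of 12 chemokine receptors tested, 4 were higher (Ccr7, Cxcr3, Cxcr4 and Cxcr5) and 5 lower, among them Ccr2, Ccr8, Cxcr6 and Cx3cr1. The T cell receptor complex and signaling list was lower in 8 of 16, by at most 0.80 on the log2 scale (Cd3g), and higher in 2. Interferon-stimulated genes were higher in 7 and lower in 6 of 19, immediate early genes higher in 5 and lower in 4 of 18, and cell cycle genes higher in 3 and lower in 7 of 24.

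Markers of other cell types were counted in the same sums. The B cell list came to 471, 318 and 156 CPM in the naive or central memory-like cells against 475, 522 and 102 CPM in the others, with Cd74 the most abundant of its genes in both KG+ libraries and Ms4a1 and Pax5 at 0 in the KG+ 1 cells. In the KR+ cells Cd79a, Ebf1, Ms4a1 and Pax5 were at 0. Ighm and Ighd, immunoglobulin constant region genes, were the 2 higher genes of 11 tested, and Ighm was at 66.4, 71.9 and 75.9 CPM against 32.9, 30.8 and 13.1 CPM. The monocyte and macrophage list came to 4.03, 27.8 and 1.42 CPM against 7.41, 24.9 and 6.30 CPM. The NK cell list came to 411, 527 and 324 CPM against 444, 625 and 335 CPM, with Fcer1g (108, 141 and 92.9 CPM) its most abundant gene here. In that list, Klra7, Klra8, Klra9 and Klrb1c, genes of NK cell receptors, were higher and Rora was lower, of 10 tested. Those 4 differences depended on the rule. With at least 3 of the 4 markers required, Klra7 was at log2 0.29 (adjusted p = 0.631) and the log2 differences of Klra8, Klra9 and Klrb1c were negative (-0.29, -0.21 and -0.37). Of the gamma-delta T cell genes, Trdc was higher (log2 1.01), but its log2 difference was -0.41 once cells with markers of other types or the most UMIs were left out, a step that removes cells by Trdc itself. The regulatory and helper T cell list was lower in 3 of 5 (Il2ra, Icos and Tnfrsf4).

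Across the classes of the gate, Tcf7 averaged 159 CPM ± 14.6 (SD, n = 3 libraries) in the naive or central memory-like cells, 50.7 ± 20.4 CPM in the remaining cells, 42.9 ± 17.9 CPM in Gzmk-positive cells and 11.3 ± 6.7 CPM in Havcr2-positive cells, and the remaining and Gzmk-positive cells differed by less than their spread. Ccr7 did not follow this order: it was at 483 ± 97 CPM in the naive or central memory-like cells and at 477 ± 9.7 CPM in the remaining cells, against 167 ± 63 CPM in Havcr2-positive and 93.0 ± 33.7 CPM in Gzmk-positive cells. Il7r was at 239 ± 15 CPM in the naive or central memory-like cells, 267 ± 23 CPM in the remaining cells and 286 ± 7.7 CPM in Havcr2-positive cells, and was lowest in Gzmk-positive cells (140.2 ± 35.0 CPM).

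The same test was made against Gzmk-positive Havcr2-negative cells, which like the naive or central memory-like cells have no Havcr2 UMI. Naive genes again separated the classes, and interferon-stimulated genes and Ccl5 were lower in the naive or central memory-like cells. Of 9187 genes tested, 1289 were higher (14%) and 1297 lower (14.1%). On plain total UMIs 779 were higher and 2469 lower, with the median gene at log2 -0.18. The Gzmk-positive cells had fewer UMIs, with medians of 5682, 7394 and 6785 a cell. The 2 comparisons share the same naive or central memory-like cells and are not independent.

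Ccr7 (chromosome 11, 99144196 to 99155077, minus strand) was at 455, 404 and 592 CPM against 105, 119 and 55.0 CPM in Gzmk-positive cells, and was 5.78-fold higher (log2 2.53, SE 0.20, adjusted p = 6.96e-07). Fam241a, Tcf7 and Satb1 were 4.18-fold, 4.13-fold and 3.54-fold higher. Il7r, which did not differ from the other CD8 T cells as a whole, was higher by 0.95 here (SE 0.12). Maf (chromosome 8, 115682942 to 115707794, minus strand), a transcription factor of differentiated T cells, was at 22.4, 23.4 and 8.02 CPM against 163, 86.1 and 121 CPM, and was 5.53-fold lower (log2 -2.47, SE 0.20, adjusted p = 7.32e-07). Ccl5, a chemokine kept by memory and effector cells, was at 2787, 3235 and 976 CPM against 12105, 10632 and 7708 CPM and was 4.23-fold lower. Gzma, Ttc39c and the interferon-inducible gene Ifi204 were 4.89-fold, 4.85-fold and 4.18-fold lower.

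On the naive and central memory list, 16 of 22 were higher and 1 lower (Sorl1). Interferon-stimulated genes were lower in 16 of 19 and higher in none (0), with a median log2 difference of -0.83 against 0.01 over all genes. Ifit1 was at 237, 189.8 and 107 CPM against 742, 521 and 433 CPM, and Isg15 at 497, 557 and 389 CPM against 1557, 1193 and 1286 CPM, with no overlap for either. Cytotoxic genes were lower in 24 of 31, and Xcl1, a chemokine gene, was the only one higher (log2 1.34). Exhaustion genes were lower in 16 of 22, Pdcd1 by 1.94 on the log2 scale, and higher in 4 (Nr4a3, Tnfrsf4, Cd160 and Ikzf2). The T cell receptor list was lower in 12 of 16 and higher in none (0). Immediate early genes were higher in 7 of 17, with Myc at log2 1.86 and Jun at log2 1.4, and lower in 2. Memory genes were lower in 9 of 13, including Ccl5, Itga4 and Eomes. Ribosomal protein genes were higher in 76 of 79 (median log2 0.72). The Gimap genes, higher against all other CD8 T cells, were lower in 2 of 8 here and higher in none (0). Quiescence genes were divided here, with 5 of 16 higher and 6 lower (median log2 -0.18). Glycolysis and hypoxia genes were lower in 10 of 22 and higher in 1, with a median log2 difference of only -0.23.

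The naive or central memory-like cells were themselves not uniform in Ccl5, which is low in naive and high in memory CD8 T cells. Ccl5 took at least 10 of 10000 UMIs in 519 of the 1017 cells and under 3 in 339. The Ccl5-low share was 34.0% in KG+ 1, 25.9% in KG+ 2 and 48.8% in KR+, and the Ccl5-high share 52.3%, 54.7% and 38.9%. In the KG+ libraries more of the Ccl5-low cells had 3 or 4 rule markers (102 of 163 and 47 of 97 cells) than of the Ccl5-high cells (52 of 251 and 37 of 205 cells). In KR+ the shares were nearly equal (22 of 79 and 17 of 63 cells). Klra7 and Itga4 were higher in Ccl5-high cells and Ccr7 was higher in Ccl5-low cells, while most members of the memory, immediate early and glycolysis lists did not pass the test. Of 7749 genes tested, 140 were higher in Ccl5-high cells (1.81%) and 85 lower (1.1%), with Ccl5 itself left out. On plain total UMIs these were 183 and 43. Without KG+ 2, only 5 were higher and 4 lower, with Klra7 and Ccr7 the only named genes still called, and DESeq2 gave 34 and 11.

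Klra7 (chromosome 6, 130218605 to 130233322, minus strand), a Ly49 receptor gene that belongs to a family of similar copies, was at 74.9, 109.7 and 138 CPM in Ccl5-high cells against 22.7, 33.4 and 40.5 CPM in Ccl5-low cells. It was 3.15-fold higher (log2 1.65, SE 0.15, adjusted p = 1.58e-04), with no overlap. Ccr7 was at 303, 247 and 255 CPM against 635, 671 and 818 CPM, and was 2.76-fold lower (log2 -1.46, SE 0.12, adjusted p = 1.58e-04). Tcf7 and Klf2 did not pass the test (log2 -0.14 and 0.15). Itga4, the gene of integrin alpha 4, was 2.98-fold higher, at 114, 134 and 109.8 CPM against 47.0, 33.4 and 30.6 CPM. Gzma, a granzyme gene, was 3.75-fold higher, but much less so in KR+ (69.8 against 49.6 CPM) than in KG+ 1 (607 against 133 CPM). Fcer1g and Tyrobp, genes of adaptor proteins of NK and myeloid cells, were 3.21-fold and 2.86-fold higher. With cells carrying other markers or the most UMIs left out, Tyrobp was at log2 0.71 (adjusted p = 0.134). Among genes lower in Ccl5-high cells, Nrgn and Gzmf were 2.77-fold and 2.17-fold lower, and both reached their highest level in Ccl5-low KR+ cells (198 CPM of Nrgn and 279 CPM of Gzmf). Pa2g4, a growth-related gene, and Iigp1, an interferon-inducible GTPase gene, were 1.97-fold and 1.90-fold lower.

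Among lists, memory genes were higher in 5 of 12 (Cxcr3, Il2rb, Itgb1, Itga4 and Cd7), the NK cell list in 5 of 9, immediate early genes in 7 of 17, residency genes in 4 of 10 and cytotoxic genes in 6 of 29, where 2 genes were lower. Glycolysis and hypoxia genes were lower in 5 of 22 and the replication genes Mcm3, Mcm4, Mcm6 and Mcm7 were the 4 lower cell cycle genes of 16. Without KG+ 2, no gene (0) of the memory or immediate early lists was called and 1 of the NK cell list.

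**Figure D4:**
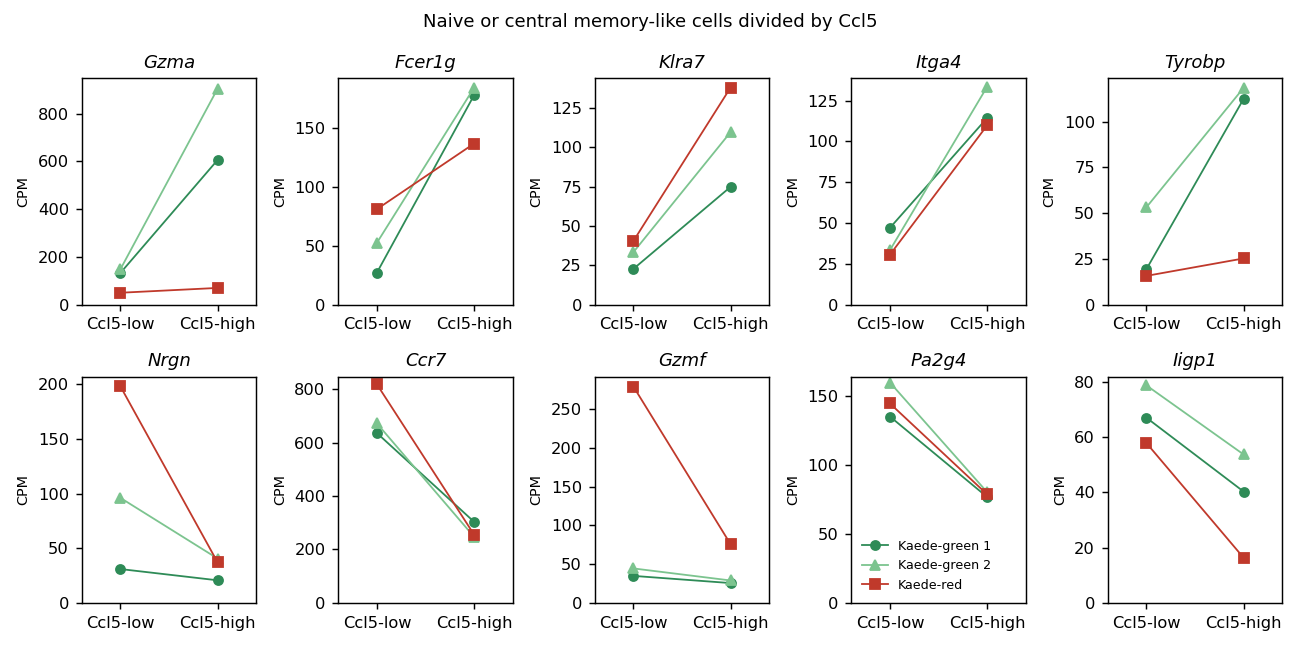
CPM (vertical axes) of the 10 genes named in the comparison of Ccl5-high with Ccl5-low cells among the naive or central memory-like cells, with 1 line per library. Klra7 and Itga4 rise and Ccr7 and Pa2g4 fall in each library, while Gzma and Tyrobp change little in KR+.

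Naive or central memory-like cells that had stayed in the tumor for at least 2 days were set beside those that had entered within 2 days. Gzma and Ccl5 were lower and Gzmf higher in KR+. A gene was called when the KR+ level was at least 2-fold from both KG+ libraries in the same direction and by more than these differed from each other. Of 10082 genes with at least 20 UMIs, 107 were higher in KR+ (1.06%) and 194 lower (1.92%), with no test. With cells of other markers or most UMIs left out, 119 and 139 were called, 64 and 96 of them in common with those above, and with at least 3 of the 4 markers only 10 of the 107 and 33 of the 194 were called again. The naive and central memory list held 0 called genes of 23, which is close to the shares over all genes (1.06% and 1.92%). Its median log2 ratio of KR+ to the KG+ libraries was -0.47 and -0.21, against 0.056 and -0.0038 over all genes compared. Tcf7 was at 175 and 153 CPM in the KG+ libraries and 148 CPM in KR+, and Ccr7 at 455, 404 and 592 CPM. Klf2 was at 544, 583 and 367 CPM, a log2 ratio of KR+ to the KG+ libraries of -0.56 and -0.67. In the other CD8 T cells these log2 ratios were -1.79 and -1.39 for Tcf7 and -1.69 and -1.50 for Klf2, past the limit of size. Whether the color difference itself differed between the classes was not tested. The rule asked for the same markers in both colors, so part of what the colors share is set by the choice of cells.

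Gzma was at 377 and 534 CPM in the KG+ cells and 53.8 CPM in KR+ (log2 ratios -2.80 and -3.30), and Ccl5 at 2787, 3235 and 976 CPM. In the other CD8 T cells these genes were also lowest in KR+, Gzma at 904, 1090 and 296 CPM and Ccl5 at 5898, 4759 and 1976.5 CPM. Gzmf was highest in KR+ in those cells too, at 711, 589 and 4339 CPM. Gzma was also at 435, 287 and 14.4 CPM in B-like cells (1 UMI in KR+) and at 54.7, 95 and 119.9 CPM in macrophage-like cells. At least 1 Gzma UMI was found in 59.4%, 78.9% and 42.6% of the naive or central memory-like cells and in 62.5%, 76.2% and 34.2% of macrophage-like cells, and the part of free RNA in the difference was not tested. Gzmm and the chemokine receptor gene Ccr2 were also lower, as was Klrg1, which had 22, 16 and 2 UMIs, 11 of the 22 in 1 cell. Of 10 genes of the NK cell list 3 were lower in KR+, namely Klra4, Klra8 and Tyrobp, the last at 73.5, 101 and 18.4 CPM. The B cell list was lower in 3 of 10 (H2-Aa, H2-Ab1 and H2-Eb1). Lyz2, 1 of 4 monocyte and macrophage genes, and Trdv4, 1 of 3 gamma-delta and NKT cell genes, were also lower. The part of these cell types in the differences of Gzma and Ccl5 was not tested. Gzmf was at 25.5 and 32.4 CPM in the KG+ cells and 188 CPM in KR+ (log2 ratios 2.88 and 2.53), where 1 cell held 37.4% of its 398 UMIs. At least 1 Gzmf UMI was found in 3.75%, 20.3% and 42.6% of these cells, in 2.51%, 11.2% and 28.6% of B-like cells (5.46, 22.9 and 28.8 CPM) and in 0%, 21.4% and 28.9% of macrophage-like cells (0, 18.2 and 21.8 CPM), where 0 of 16 cells allows a share of up to 20.6% (exact Clopper-Pearson 95% interval). The part of free RNA was not tested. Gzmd was at 11.3, 6.66 and 40.1 CPM, and it rested on few cells, with 54 of its 59 UMIs in KG+ 1 and 28 of its 85 UMIs in KR+ in 1 cell each. In KR+ it was at 57.5 CPM in the 7 B-like cells (4 UMIs) and at 12.7 CPM in the 38 macrophage-like cells. Of the exhaustion list only Cd200 was called, at 3.84, 5.98 and 15.1 CPM, and 1 cell held 10 of its 32 UMIs in KR+. Pdcd1 was at 79.8, 103 and 149.5 CPM and Lag3 at 59.5, 67.6 and 135 CPM, neither of them called. On the glycolysis list Tpi1 (87.5, 95.4 and 202 CPM) and Slc16a3, a lactate exporter gene, were higher and Vegfa lower. Nusap1, Tk1 and Ube2c were the 3 cell cycle genes that were higher, at low levels.

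Genes with large ratios often rested on few cells or few UMIs. Gzmc was at 28.4, 84.6 and 642 CPM, yet 1 cell held 38.0% of its 1362 UMIs in KR+, and its smaller log2 ratio was 2.08 in place of 2.92 with cells of other markers or most UMIs left out. At least 1 Gzmc UMI was found in 13.8%, 51.2% and 79.0% of the naive or central memory-like cells, but also in 8.04%, 32.7% and 85.7% of B-like cells (7 cells in KR+) and 12.5%, 45.2% and 68.4% of macrophage-like cells. The summed level of Gzmc in KR+ was 642 CPM in the naive or central memory-like cells, 259 CPM in B-like and 111 CPM in macrophage-like cells, and the part of free RNA in it was not tested. Tff1, Gldc, Ccdc184 and Slc16a11 were higher in KR+ with 34, 51, 59 and 37 UMIs in all. Alox5ap, Ifi205, Cd24a, Plbd1 and Ctsh had 0 UMIs in KR+, where 3 counts would be 1.42 CPM. Against that floor, Alox5ap was at least 5.29-fold higher in KG+ 1 and at least 5.03-fold higher in KG+ 2. Its 39 UMIs in KG+ 1 came from 9 cells, and 1 cell held 41.0% of them. Alox5ap was found in all 16 macrophage-like cells of KG+ 1 (895 CPM), and its part in those few cells was not tested. H2-Aa, an antigen presentation gene of B and myeloid cells, was at 75.4, 32.2 and 1.42 CPM, with 212 of its 393 UMIs in KG+ 1 in 1 cell, and its shares of cells (4.79%, 18.1% and 1.85%) were close to those of the other CD8 T cells (4.86%, 19.2% and 1.98%).

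**Figure D5:**
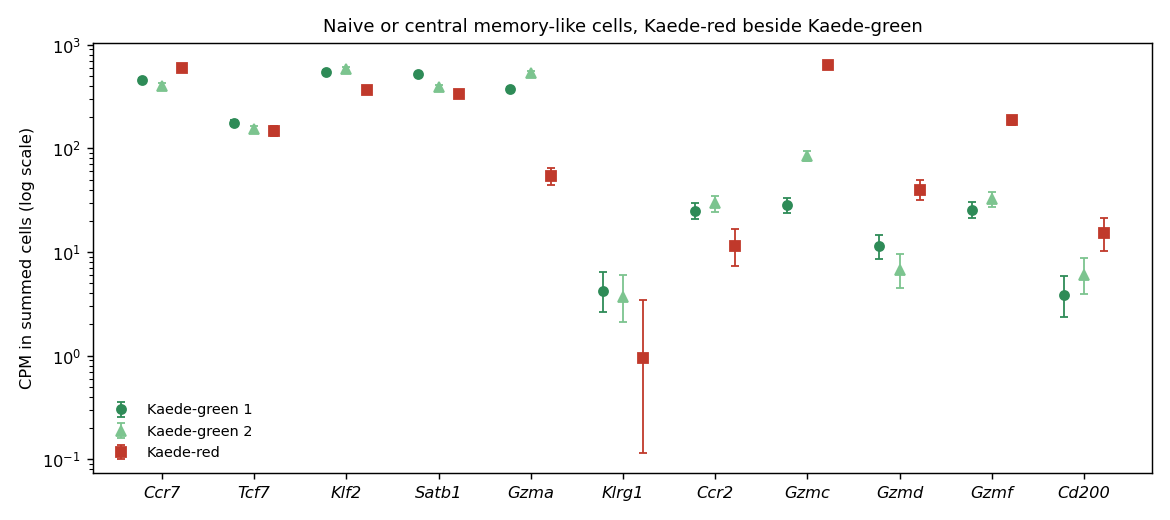
CPM in summed naive or central memory-like cells (vertical axis, log scale) by library for 11 genes, with exact 95% Poisson intervals for counting error. Tcf7 and Ccr7 differ by less than 2-fold between libraries, while Gzma is lower and Gzmf and Gzmc are higher in KR+.

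Within Ccl5 classes the colors differed in other genes. In Ccl5-low cells Klf2 was at 653 and 555 CPM in the KG+ libraries and 239 CPM in KR+ (log2 ratios -1.45 and -1.22), whereas in Ccl5-high cells it was at 489.9, 579 and 539 CPM. Pdcd1 in Ccl5-low cells was at 36.5, 74.7 and 202 CPM, and in Ccl5-high cells at 124, 125 and 77.2 CPM. Ikzf2 was highest in KR+ in both classes, at 98.0, 84.2 and 275 CPM in Ccl5-low cells and 204, 265 and 371 CPM in Ccl5-high cells. The Ccl5-low cells of KR+ held fewer cells with 3 or 4 rule markers than those of the KG+ libraries, as given above, and Klf2 climbed and Pdcd1 fell with the number of markers. The part of this difference in make-up was not tested. These values rest on 163, 97 and 79 Ccl5-low and 251, 205 and 63 Ccl5-high cells and carry no test.

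Use of T cell receptor beta V segments, which the rule did not use, was counted in cells with exactly 1 Trbv gene detected: 120 of 480, 108 of 375 and 37 of 162 of the naive or central memory-like cells. The inverse Simpson index, the number of equally used segments that would give the same diversity, was 12.4, 14.8 and 13.3, against 12.0, 14.2 and 13.1 in the other CD8 T cells. The most used segment was the same in both classes of each library, Trbv12-2 in KG+ 1 (20.8% and 20.9% of cells) and KR+ (21.6% and 17.3%) and Trbv29 in KG+ 2 (12.0% and 11.9%). Gzmk-positive cells had the lowest index in KG+ 1 and KR+, 9.81 and 7.91, from 93 and 63 cells with 1 Trbv gene. In KG+ 2 their index was 14.2, and Havcr2-positive cells had the lowest (12.2). Segment use does not resolve clones.

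Because Lef1 was a marker of the rule and Tcf7 one of the genes with the largest differences, promoters were searched for letters that TCF and LEF proteins are known to bind, namely CTTTG followed by any pair of A or T (motifs of 7 letters, on either strand). Windows of 300 bases, 250 before and 50 after the start site, came from RefSeq (GRCm38.p6). Of 8559 tested genes with a window, 13.5% held at least 1 match in any of their windows, against 15.0% of 1260 genes that were higher and 12.8% of 1396 that were lower. Over the 32851 windows read the share was 16.9%. Among the genes named by size, matches were found in windows of Satb1 and in no window read for the others. No window was read for Cd7 and Ccl4. The Satb1 windows with a match overlap and hold the same letters, at bases -18 and -148 from their start sites. The window below is shown because its match begins at base -18 from a start site (chr17:51812135-51812434, minus strand). The match is in capitals and describes letters only, not binding.
Satb1: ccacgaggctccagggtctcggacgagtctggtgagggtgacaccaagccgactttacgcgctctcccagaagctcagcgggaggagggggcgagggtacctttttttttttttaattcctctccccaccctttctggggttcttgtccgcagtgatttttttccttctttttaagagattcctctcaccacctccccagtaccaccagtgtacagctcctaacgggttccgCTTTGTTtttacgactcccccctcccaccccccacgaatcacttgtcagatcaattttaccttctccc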

How the data were processed

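Gene expression of tumor-infiltrating lymphocytes was measured with 10x Genomics 3' libraries in 3 samples (2 KG+, 1 KR+). The deposited values are raw UMI counts per gene and cell that the authors made with Cell Ranger (version 6.1.2 in the processing notes, 6.0.1 in the matrix header) against mm10. Cells were filtered, gated and summed per library and class from these counts. The members and gene lists were chosen with earlier results of these data known. Sums were tested with edgeR 4.0.16 in R 4.3.3 (TMM factors, filterByExpr, quasi-likelihood, library block), without the 13 rule genes, and adjusted over all genes tested. The edgeR steps were checked on simulated data. The library block is the pairing of both classes within a library, not a replicate number. No doublet caller was run. Cells with markers of other types or in the top 5% of UMIs were left out as an alternative instead. Named genes were the 10 (all other CD8 T cells) or 5 (other tests) with the largest log2 fold change each way among called genes of equal sign in 3 libraries and at least 50 CPM on average, without receptor and immunoglobulin segments, mitochondrial, ribosomal, Gm- and Rik-named genes. Up to 4 further abundant genes were examples per list. Some list genes named for their function were chosen after their values were seen. Between colors, 0.5 was added to each count before the log2 ratio. Of 32285 genes, 32158 were found by identifier in GENCODE M21. Alternatives were DESeq2 1.42.0, other factors, filters, depths, marker sets and leaving out each library. Some results on single genes are not reported here.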

Additional observations from a re-analysis of the deposited data

Results flagged for a closer look

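In the comparison with Gzmk-positive cells, 3 listed genes had log2 CPM ratios of one sign in both KG+ libraries and of the other sign in KR+ on at least 1 of 2 scales, plain CPM or CPM relative to the median gene, which was at -0.22, -0.15 and -0.16 in KG+ 1, KG+ 2 and KR+. Bcl2 was at 0.17 and 0.60 in the KG+ libraries and -0.19 in KR+ on plain CPM, and at 0.39, 0.75 and -0.03 relative to the median gene. Ldha was at 0.08, 0.05 and -0.03 on plain CPM, but at 0.30, 0.20 and 0.13 relative to the median gene, so its signs differ on the former scale and not on the latter. Klrc2 was at -0.94, -1.15 and -0.02 on plain CPM and at -0.72, -1.0 and 0.13 relative to the median gene. No difference between the colors was tested, since there was 1 KR+ library.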

How the results depend on the processing

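The genes named by size against all other CD8 T cells and those named against Gzmk-positive cells kept their direction and call under every alternative run. Counts moved more. Against all other CD8 T cells, 1636 higher and 1789 lower became 973 higher with DESeq2, 880 higher with at least 3 of 4 markers, 799 and 908 without the library block, 746 and 774 with cells thinned to 2000 UMIs, and 879 and 1079 without Lef1 as a marker. Leaving out 1 library gave 989 to 1546 higher and 1336 to 1642 lower. Against Gzmk-positive cells, DESeq2 gave 458 and 535, no library block 687 and 652, plain total UMIs (chosen after seeing the data) 779 and 2469, and leaving out 1 library 836 to 1296 higher and 859 to 1328 lower. Between Ccl5 classes, 140 and 85 became 34 and 11 with DESeq2, 297 and 212 without a filter on low counts, 73 and 35 without the library block, 5 to 465 and 4 to 478 when 1 library was left out, and, in settings chosen after seeing the data, 38 lower with cells of other markers or most UMIs left out and 43 lower on plain total UMIs. Log2 differences from all other CD8 T cells that reversed were those of Itga4, Klra8, Klra9 and Klrb1c with at least 3 of 4 markers (-0.30, -0.29, -0.21 and -0.37), of Klra8, Klra9 and Klrb1c without Lef1 (-0.15, -0.081 and -0.25), of Itga4, Klra8, Klra9 and Klrb1c without S1pr1 (-0.13, -0.12, -0.22 and -0.20), of Trdc with cells of other markers or most UMIs left out (-0.41) and of Ccnb2 with cells thinned to 2000 UMIs (0.089). The causes were not tested. With at least 3 of 4 markers, shares of naive or central memory-like cells in KG+ 1, KG+ 2 and KR+ were 8.91%, 4.18% and 1.62%. They were 11.3%, 5.74% and 2.31% without Lef1, 20.1%, 12.4% and 3.86% without Dapl1, and 10.7%, 4.79% and 2.67% without S1pr1. Thinned cells gave 10.1%, 5.91% and 1.79% at 3000 UMIs, and 6.16%, 3.61% and 1.05% at 2000 UMIs. Without the limits on Havcr2 and Gzmk, the shares were 26.4%, 18.4% and 6.16%. KG+ 1 was highest and KR+ lowest in each. Between colors, at least 50 UMIs left 39 higher and 78 lower. The KR+ sums held the fewest UMIs (2119853 in 162 cells), which limits what can be seen of low genes there, and p-values cover these 3 libraries only. No paired analysis was possible because the labels number only the KG+ libraries, which concerns pairing by replicate number between colors and not the library block that paired the classes in each test.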
